A study of Saccharomyces cerevisiae with 5 samples.

Results

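Unstressed yeast cells lacking SIW14 were set against wild-type cells on 1 two-colour array, and the genes described here are those with a value on that array. All yeast probes with a value were taken and averaged per gene symbol of the array's annotation, which gave 5603 of the 6249 genes in the table. Of these, 3925 have a gene name, out of 4068 named genes, and 1678 have none and enter only the counts. All values are log2 ratios, siw14 over wild type, unless another array is named, so that a value of 1 in size is a 2-fold difference.

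Polyadenylated RNA of Saccharomyces cerevisiae in log phase in synthetic complete medium was compared on 5 such arrays, 1 for each comparison and with no replicate, so no value below has an error or a test. On 3 arrays the strain labelled Siw14D (Cy5) was compared with BY4741 (Cy3): with no stress, the array described here, with both strains in 0.4 mM H2O2, or with both in 0.4 M KCl, each for 20 min. On the other 2 arrays the wild-type strain ACY044, given H2O2 or KCl in the same way (Cy5), was compared with its own unstressed cells (Cy3). No array had its dyes swapped, so what the dyes add and what the strains differ in cannot be told apart. The 3 mutant arrays share strains and dye order and may share wild-type RNA. Like values on them are therefore not replicates of each other. On the arrays of stressed siw14 cells the Cy3 source name gives only the medium, and the treatment entry, which gives the stress, was followed. The labels state neither how SIW14 was deleted nor the mating type or marker genes of the strains.

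Siw14 is a phosphatase that removes a phosphate from the inositol pyrophosphate InsP7, a small signalling molecule made by the kinases Kcs1 and Vip1. The study asked how its loss bears on the general stress response, which the transcription factors Msn2 and Msn4 turn on and protein kinase A holds back in cells growing on glucose. Glucose also keeps genes for respiration, storage carbohydrates and the use of other carbon sources low, and regulators such as Hap4 and Cat8 raise them when glucose runs short.

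SIW14 itself lay at -2.07, and at -1.66 and -2.06 on the arrays of siw14 over wild type in peroxide and in KCl. In stressed wild-type cells it was near 0, at 0.28 in peroxide and -0.22 in KCl. Of the 9 measured genes of the inositol phosphate list, SIW14 included, 7 lay below 0 and SIW14 alone was past 2-fold. KCS1 lay at 0.03, VIP1 at -0.30, the diphosphoinositol phosphatase gene DDP1 at -0.13 and OCA1, a relative of SIW14, at -0.12. The inositol monophosphatase gene INM1 was the next lowest after SIW14 at -0.56.

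Most genes differed little between unstressed siw14 and wild-type cells. Of the named genes 79.3% lay within 0.5 of 0, and the median of all genes was -0.00. At least 2-fold higher in siw14 cells were 346 genes, or 6.18% of those with a value, and 87, or 1.55%, were at least 2-fold lower. Higher genes thus made up 79.9% of the genes past 2-fold. The 2-fold threshold only sorts genes by size. On the higher side MTH1 at 1.01 lay just inside it and GCV3 at 0.997 just outside, and on the lower side ARN1 at -1.003 lay inside and IXR1 at -0.99 outside. The array had a narrower spread than the others, with a median absolute deviation of 0.256 against 0.491 to 0.517. After its values were multiplied by 1.95 to give it the median spread of the 5 arrays, 779 genes lay past 2-fold on the higher side and 488 on the lower, and the share of higher ones was 61.5%. A value was missing for 10.3% of genes, and the 16 nuclear chromosomes had medians between -0.06 and 0.07 over 3921 placed genes, so no chromosome stood far from the rest.

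General stress, iron uptake and hexose transporter genes are set aside in what follows. These 3 lists hold 51 of the 211 higher and 12 of the 44 lower named genes. Of the other 160 higher genes, 99 belong to at least 1 of 77 further gene lists and 61 to none, and of the other 32 lower genes, 21 belong to a list and 11 to none. As the plot of gene list medians shows, most of these lists had medians near 0, and 12 of the 77 had a median of 0.5 or more in size.

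**Figure D1:**
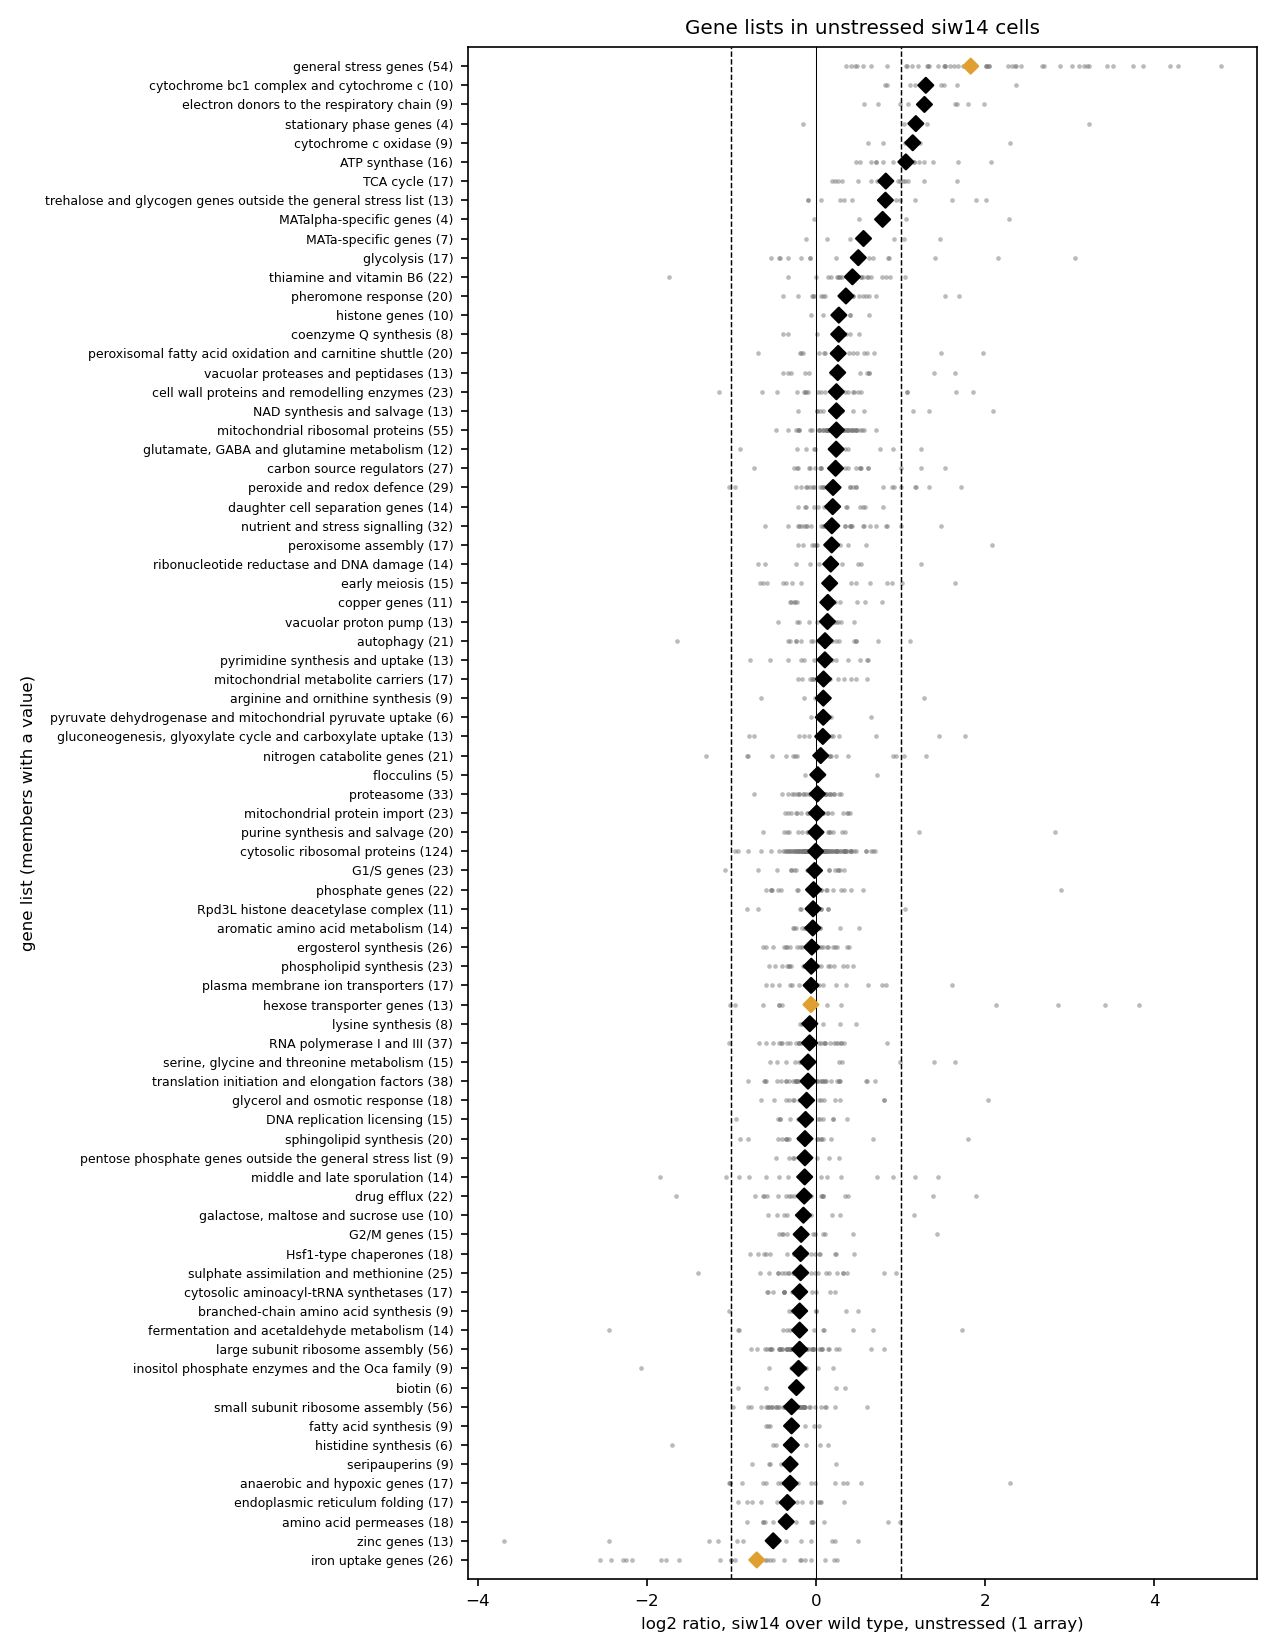
Each small point is 1 gene on the array of unstressed siw14 over wild type (horizontal axis, log2 ratio), each diamond the median of a gene list with at least 4 values, and the number after a list's name its members with a value; orange diamonds mark the 3 lists set aside and dashed lines 2-fold. Below the general stress list at the top, the respiratory lists have medians of 1.06 to 1.30, and zinc genes stand next to iron uptake genes at the bottom with a median of -0.51.

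Nuclear genes for the machinery of respiration stood above the wild type as a group. All 39 measured genes for subunits and partners of respiratory complexes II to V lay above 0, between 0.48 and 2.36, and 26 of them were at least 2-fold higher, against 6.18% of all genes. Their median was 1.14. The same genes had medians of -0.31 in wild type in peroxide, 0.86 in wild type in KCl, 1.12 in siw14 over wild type in peroxide and 1.23 in KCl.

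The cytochrome bc1 complex and cytochrome c, which carry electrons from ubiquinol to cytochrome c oxidase, had 8 of 10 genes at least 2-fold higher and a median of 1.30. CYC7, the cytochrome c isoform gene of low oxygen, led at 2.36 and also stands in the general stress list. QCR10, a small subunit gene, lay at 1.66 and the Rieske iron-sulphur protein gene RIP1 at 1.52. The lowest members, QCR6 and COR1, lay at 0.82 and 0.84 and so also above the wild-type level. RIP1 lay at -1.31 in wild type in peroxide, 1.30 in wild type in KCl, 1.63 in siw14 over wild type in peroxide and 1.59 in KCl, low in the peroxide response of wild type and high on the other arrays.

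Cytochrome c oxidase, which passes electrons to oxygen, had 7 of 9 genes at least 2-fold higher and a median of 1.14. COX5B, the subunit isoform gene used at low oxygen, lay at 2.29 and its counterpart COX5A, used in air, at 0.79. The other members were close together, with COX12 at 1.23, COX4 at 1.17 and COX9, the lowest, at 0.62. In ATP synthase 9 of the 16 genes lay past 2-fold on the higher side, and the median was 1.06. Its inhibitor gene INH1 lay highest at 2.07, followed by the dimer subunit gene TIM11 at 1.68 and the stator subunit gene ATP7 at 1.39, while the catalytic subunit gene ATP2 lay at 0.52. INH1 lay at 0.17 in wild type in peroxide, 1.34 in wild type in KCl, 2.07 in siw14 over wild type in peroxide and 1.23 in KCl.

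Enzymes that feed electrons into the chain had 6 of 9 genes at least 2-fold higher, against 6.18% of all genes, and a median of 1.28. CYB2, the lactate dehydrogenase gene of the intermembrane space, lay at 1.99, NDE2, one of the external NADH dehydrogenase genes, at 1.80, and the internal NADH dehydrogenase gene NDI1 at 1.28. MCR1, a cytochrome b5 reductase gene, lay at 1.65 and SDH2, the iron-sulphur subunit gene of succinate dehydrogenase, at 1.67. SDH2 had the most uneven pattern of these, at -2.05 in wild type in peroxide, 1.20 in wild type in KCl, 1.38 in siw14 over wild type in peroxide and 1.58 in KCl. For the 9 genes together the median was 0.80 in wild type in peroxide and 1.85 in wild type in KCl. In the latter 8 were at least 2-fold higher, against 11.5% of all genes. In siw14 over wild type the median was 1.83 in peroxide and 1.58 in KCl.

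The TCA cycle, the mitochondrial pathway that oxidises acetyl-CoA, had 5 of 17 genes at least 2-fold higher, against 6.18% of all genes. Its median was 0.83 and no member lay below 0. The citrate synthase genes CIT1 and CIT3 lay at 1.27 and 1.05, and LSC2 of succinyl-CoA ligase at 1.03. The steps from citrate to 2-oxoglutarate and onward held the lowest members, with aconitase ACO1 at 0.26, IDP1 at 0.22 and KGD1 of 2-oxoglutarate dehydrogenase at 0.19.

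Other mitochondrial groups were near the wild-type level. Coenzyme Q synthesis had a median of 0.27 over 8 genes, metabolite carriers 0.09 over 17, protein import 0.01 over 23, pyruvate dehydrogenase and pyruvate uptake 0.09 over 6, and mitochondrial ribosomal proteins 0.24 over 55, and none of these genes passed 2-fold. POR1, the porin gene of the outer membrane, was higher at 1.42. Genes of the mitochondrial genome did not share the values of the nuclear respiratory genes. Their median was -0.31 over 16 genes, with 0 at least 2-fold higher and 3 lower, against 6.18% and 1.55% of all genes. The 3 lower were VAR1, a ribosomal protein gene, at -1.23 and the intron reading frames BI2 and BI4 at -1.14 and -1.12. The 6 exon genes for respiratory subunits had a median of 0.08, from COX1 at -0.15 to OLI1 at 0.47, and the 9 intron reading frames a median of -0.69. These RNAs are largely without the long tails that oligo-dT captures, and how that bears on their ratios was not tested.

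**Figure D2:**
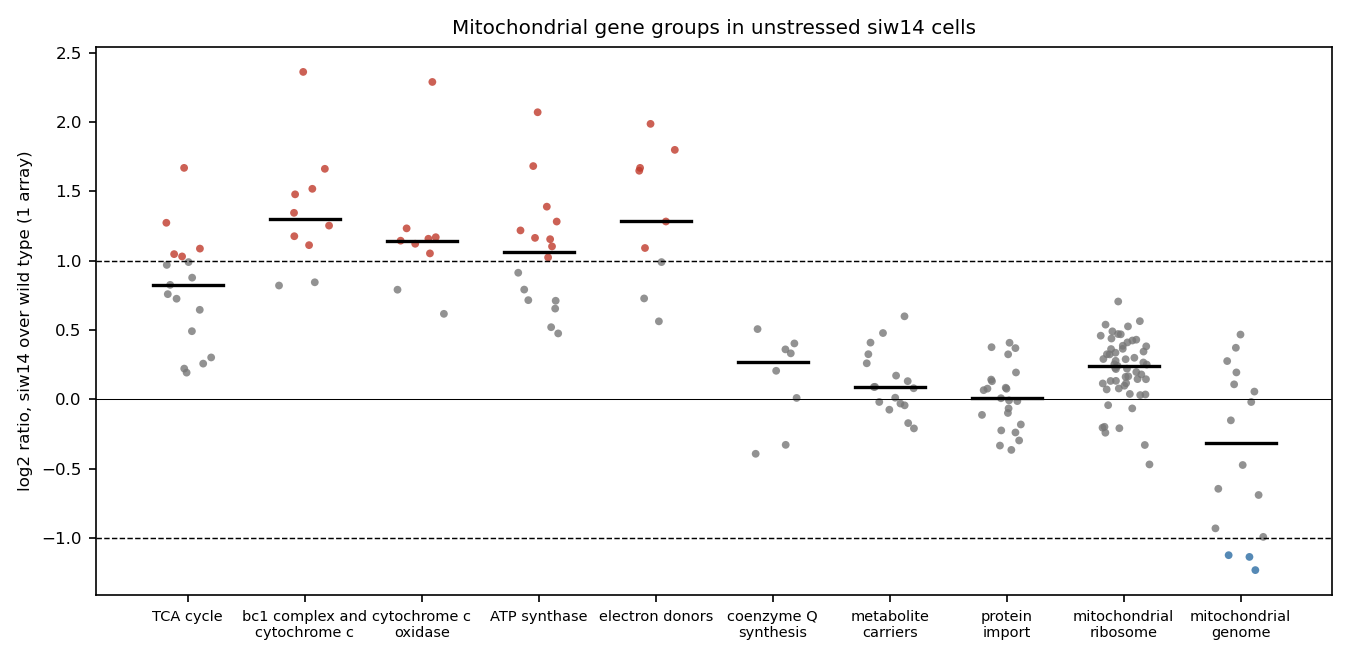
Each point is 1 gene on the array of unstressed siw14 over wild type (vertical axis, log2 ratio), grouped by mitochondrial function, with bars at the group medians, dashed lines at 2-fold, and red and blue points past 2-fold. The 4 groups of the respiratory chain and ATP synthase lie with medians of 1.06 to 1.30, whereas carriers, import and ribosomal proteins lie between 0.01 and 0.24 and the mitochondrial genome at -0.31.

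Of 27 regulators of carbon use 3 were at least 2-fold higher and 0 lower, against 6.18% and 1.55% of all genes, with a list median of 0.23. HAP4, which encodes the limiting activating subunit of the Hap complex that turns on respiratory genes, lay at 1.52. On the other arrays HAP4 lay at -1.11 in wild type in peroxide, -0.39 in wild type in KCl, 1.32 in siw14 over wild type in peroxide and 2.55 in KCl, so it was above 0 on the 3 mutant arrays and below 0 on both wild-type stress arrays. CAT8, the activator gene of gluconeogenesis, lay at 1.24, 0.10 in wild type in peroxide, 1.58 in wild type in KCl, 0.90 in siw14 over wild type in peroxide and 2.30 in KCl. MTH1, whose product represses hexose transporter genes when glucose is low, lay at 1.01. HAP2, HAP3 and HAP5, which encode the DNA-binding subunits, lay at 0.38, 0.05 and 0.23, the kinase gene SNF1 at -0.07 and the repressor gene MIG1 at 0.06.

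Genes for the use of other carbon sources were near the wild-type level as groups, with a few single genes well above it. Of 13 genes for gluconeogenesis, the glyoxylate cycle and carboxylate uptake, with a median of 0.08, 2 were at least 2-fold higher and 6 lay below 0, against 6.18% of all genes higher: ICL1 for isocitrate lyase at 1.76 and FBP1 for fructose-1,6-bisphosphatase at 1.45. PCK1, for the other committed enzyme of gluconeogenesis, lay at -0.00, and the acetate transporter gene ADY2 at -0.79. FBP1 lay at -0.08 in wild type in peroxide, 0.34 in wild type in KCl, 1.82 in siw14 over wild type in peroxide and 1.73 in KCl, high on the mutant arrays and near 0 on the others. Peroxisomal fatty acid oxidation had 2 of 20 genes at least 2-fold higher, a share near the 6.18% of all genes, the dienoyl-CoA reductase gene SPS19 at 1.98 and the thiolase gene POT1 at 1.48, with a median of 0.26. PEX18, for a co-receptor of peroxisomal import, lay at 2.08 while the median of the 17 peroxisome assembly genes was 0.19.

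Glycolysis had a median of 0.50 over 17 genes, and 3 were at least 2-fold higher, against 6.18% of all genes. These 3 were minor isoforms of enzymes. TDH1, a glyceraldehyde-3-phosphate dehydrogenase gene, lay at 3.06, GPM2, related to phosphoglycerate mutase, at 2.16 and the second pyruvate kinase gene PYK2 at 1.41. The main isoforms TDH3, GPM1 and CDC19 lay at 0.86, 0.63 and 0.85, and the phosphofructokinase genes PFK1 and PFK2 at -0.17 and -0.54. TDH1 lay at 4.46 in wild type in peroxide, 2.74 in wild type in KCl, 4.0 in siw14 over wild type in peroxide and 4.04 in KCl, so it was high on all 5 arrays. In fermentation and acetaldehyde metabolism, with a median of -0.19 over 14 genes, the mitochondrial aldehyde dehydrogenase gene ALD4 lay at 1.72 and ADH4, an alcohol dehydrogenase gene under zinc control, at -2.45. Trehalose and glycogen genes outside the general stress list had 4 of 13 members at least 2-fold higher, against 6.18% of all genes. Their median was 0.82. GSY1, for glycogen synthase, lay at 2.01, GDB1, for the debranching enzyme, at 1.90, the phosphatase regulator gene GIP2 at 1.61 and GLG1, for the glycogenin that primes synthesis, at 1.17. Pentose phosphate genes outside that list had a median of -0.13, with 0 of 9 past 2-fold.

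Pairs of related genes were compared in the same way, and the result was mixed. Of 50 pairs listed with the relative known for use under stress, on poor carbon sources or in resting cells second, where such a role is known, 35 had both values. The second gene exceeded the first by at least 1 in 17 pairs, the first exceeded the second in 2, and 16 lay within 1 of each other, with a median difference of 0.85. In 10 pairs the second gene was higher by 1.5 or more. SOL3 and SOL4, for 6-phosphogluconolactonase, lay at 0.16 and 4.19, the hexokinase genes HXK2 and HXK1 at -0.43 and 3.52, and the glycerol phosphatase genes GPP1 and GPP2 at -0.50 and 2.04. SOL4 and HXK1 belong to the general stress list, so that several of these pairs repeat its values. In the 22 pairs with no member in the lists set aside, the second gene exceeded the first by at least 1 in 8, the first exceeded the second in 2, and 12 lay within 1, with a median difference of 0.53. In the pairs of the opposite kind, GDH1 lay at 0.76 and GDH3, the other NADP-dependent glutamate dehydrogenase gene, at -0.90, and mitochondrial CIT1 lay at 1.27 and peroxisomal CIT2 at -0.08. Near-identical pairs may not be told apart by their probes.

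**Figure D3:**
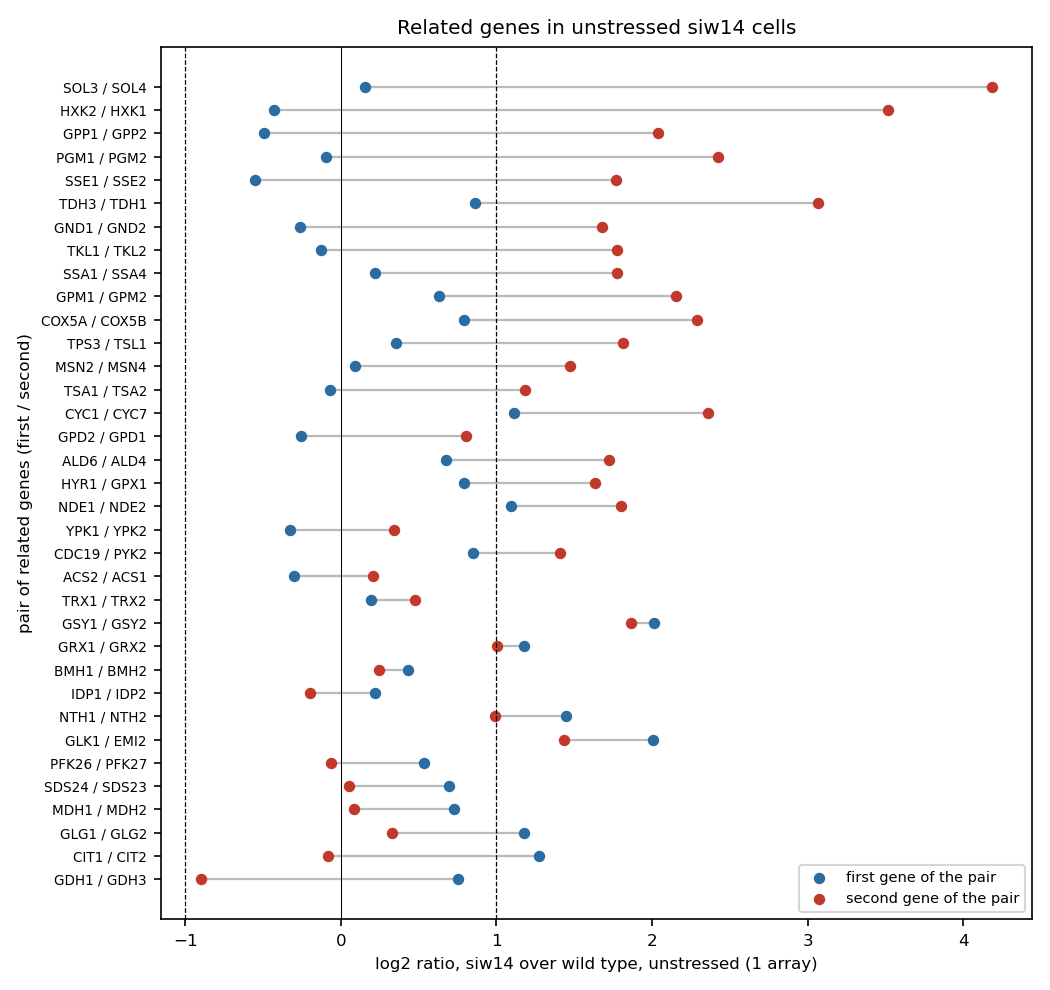
Each row is 1 of the 35 pairs of related genes with both values, with the log2 ratio of unstressed siw14 over wild type (horizontal axis) of the first gene in blue and of the second in red, and dashed lines at 2-fold. The second gene lies at least 1 above the first in 17 rows, from SOL3 and SOL4 at the top down, and the first lies at least 1 above the second in the 2 rows at the bottom.

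In amino acid and nucleotide metabolism single genes and short routes stood out. In the glycine cleavage system, which yields one-carbon units from glycine, GCV2 lay at 1.64, GCV1 at 1.40 and GCV3 just below 2-fold at 0.997. GCV2 lay at 0.48 in wild type in peroxide, -0.43 in wild type in KCl, 0.34 in siw14 over wild type in peroxide and 0.18 in KCl, so its high value stood on the unstressed mutant array. HIS4, for an enzyme of several steps of histidine synthesis, lay at -1.70, against a median of -0.29 over 6 histidine genes. HIS4 lay at 0.90 in wild type in peroxide, -0.83 in wild type in KCl, -1.25 in siw14 over wild type in peroxide and -1.01 in KCl. ILV6, for the regulatory subunit of acetolactate synthase, lay at -1.03, and MET8, for an enzyme of sirohaem synthesis, at -1.39.

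In arginine metabolism the synthesis gene ARG3 was higher at 1.28, and the breakdown genes CAR1 and CAR2 lay at -0.82 and -1.30. CAR2, for ornithine aminotransferase, lay at 0.69 in wild type in peroxide, 1.63 in wild type in KCl, -2.13 in siw14 over wild type in peroxide and -1.18 in KCl, below 0 on the mutant arrays and above 0 on the others. Of the nitrogen catabolite genes, which poor nitrogen sources turn on, the general amino acid permease gene GAP1 lay at 1.31 and the allantoin permease gene DAL4 at 1.04, with a list median of 0.06 over 21. The other amino acid permease genes had a median of -0.35, with 15 of 18 below 0 and 0 past 2-fold, from DIP5 at -0.82 to AGP2 at 0.99.

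The kynurenine route from tryptophan to NAD had 3 genes at least 2-fold higher, of 13 measured for NAD synthesis and salvage, with 6.18% of all genes higher. BNA1 lay at 2.09, BNA2, for the enzyme of the opening step, at 1.34 and BNA5 at 1.14. BNA1 lay at 1.29 in wild type in peroxide, 0.52 in wild type in KCl, 2.37 in siw14 over wild type in peroxide and 1.56 in KCl. BNA4, for a middle step of the same route, lay at 0.31. For the making of vitamin B6, SNO1 lay at -1.74 and SNZ1, its divergent partner, at 0.41, and the pyridoxal kinase gene BUD16 at 1.05.

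IMD2, for an IMP dehydrogenase of guanine nucleotide synthesis, was one of the highest genes at 2.83. It lay at 0.08 in wild type in peroxide, -0.65 in wild type in KCl, 2.89 in siw14 over wild type in peroxide and 2.74 in KCl, so it was high on each mutant array and not on the others. Its relatives IMD3 and IMD4 lay at 1.22 and 0.34, and no other of the 20 purine genes passed 2-fold. Of the 20, 2 were thus at least 2-fold higher, against 6.18% of all genes.

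Zinc genes lay below the wild type. Their median was -0.51, with 4 of 13 at least 2-fold lower, against 1.55% of all genes, and 0 higher. The list median was -0.72 in wild type in peroxide and -0.17 in wild type in KCl. In siw14 over wild type it was -0.74 in peroxide and -0.69 in KCl, so the list was low in wild type in peroxide too. ZPS1, for a cell surface protein made when zinc is short, was the lowest named gene at -3.69, and lay at -0.71 in wild type in peroxide, 0.57 in wild type in KCl, -3.07 in siw14 over wild type in peroxide and -3.45 in KCl. The vacuolar zinc exporter gene ZRT3 lay at -1.26 and ZAP1, which encodes the activator of the group, at -1.16. The high-affinity importer gene ZRT1 lay at -0.93 and the low-affinity one, ZRT2, at 0.19. In drug efflux the multidrug exporter gene PDR5 lay at -1.65, -1.35 in wild type in peroxide, -0.97 in wild type in KCl, -1.72 in siw14 over wild type in peroxide and -1.57 in KCl, below 0 on all 5 arrays. The polyamine exporter genes TPO2 and TPO4 lay at 1.89 and 1.39.

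Stress groups other than the general stress list were mixed. Of 29 peroxide and redox genes, with a median of 0.20, 5 were at least 2-fold higher, against 6.18% of all genes: the glutathione transferase genes GTT1 at 1.71 and ECM4 at 1.33, the peroxiredoxin gene TSA2 at 1.18, and the glutaredoxin genes GRX1 at 1.17 and GRX2 at 1.01. The old yellow enzyme genes OYE2 and OYE3 lay at -1.03 and -0.96, the main peroxiredoxin gene TSA1 at -0.07 and the regulator gene YAP1 at 0.26. Endoplasmic reticulum folding genes had a median of -0.34, with 13 of 17 below 0 and 0 past 2-fold, and the chaperone gene KAR2 lay at -0.92, SCJ1 at -0.81 and the oxidase gene ERO1 at -0.76. Chaperones of the Hsf1 type had a median of -0.18 and proteasome genes 0.02, with 0 past 2-fold in either list. In the cell wall list the mannoprotein gene CWP2 lay at 1.86 and PIR3 at 1.66, and TIP1 at -1.15. GPP2, for glycerol phosphatase, lay at 2.04, whereas GPD1, for the enzyme before it in glycerol synthesis, lay at 0.80. PHM8, for a phosphatase, lay at 2.89 within a phosphate list whose median was -0.03.

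Of the signalling genes, MSN4 lay at 1.48 and MSN2 at 0.09. The protein kinase A subunit gene TPK2 lay at 1.01 and BCY1, for the regulatory subunit, at 0.83, PDE1, for a cyclic AMP phosphodiesterase, at 0.84 and SCH9, for a growth-promoting kinase, at -0.61. No other of the 32 signalling genes passed 2-fold, and the share higher was near the 6.18% of all genes. MSN4 lay at 0.06 in wild type in peroxide, 0.09 in wild type in KCl, 0.45 in siw14 over wild type in peroxide and 0.80 in KCl, so its highest value was that of the unstressed mutant.

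Ribosome assembly genes lay slightly below the wild type. Of 112 such genes 97 lay below 0, with a median of -0.25 and a range of -0.98 to 0.80. Past 2-fold were 0 of them, against 6.18% of all genes on the higher side and 1.55% on the lower. Assembly factors of the small subunit had a median of -0.29 and those of the large subunit -0.19. Over the same 112 genes wild type in peroxide had a median of -1.68 and wild type in KCl -2.71, far below. In siw14 over wild type their median was -0.87 in peroxide and -2.14 in KCl. The 124 genes of cytosolic ribosomal proteins had a median of -0.00. Of 37 genes of RNA polymerases I and III, with a median of -0.08, RPA14, an RNA polymerase I subunit gene, was past 2-fold at -1.02. WHI5, for a repressor of the start of the cell cycle, lay at -1.07. It alone passed 2-fold among 23 genes of that start (G1/S), whose median was -0.02. The mitotic cyclin gene CLB1 lay at 1.43, alone past 2-fold among 15 mitotic (G2/M) genes, a share near the 6.18% of all genes higher. Of the 15 mitotic genes 11 lay below 0, with a median of -0.17. A single gene past 2-fold is no result about its list.

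Genes that often mark strains differed between siw14 and wild-type cells. BY4741 is a MATa strain that lacks URA3, LEU2, HIS3 and MET17 function, as is generally known of it. URA3, for an enzyme of uracil synthesis, lay at 3.02 on this array, -0.42 in wild type in peroxide, -0.20 in wild type in KCl, 1.63 in siw14 over wild type in peroxide and 2.53 in KCl. LEU2, for an enzyme of leucine synthesis, lay at 1.84, 0.37, -0.11, 2.24 and 2.10 on the same arrays in that order. Both genes were thus high on the 3 mutant arrays and near 0 on the arrays of ACY044. Of their chromosomal neighbours in the RefSeq gene table, GEA2 lay at -0.44 and TIM9 at -0.10 beside URA3, and NFS1 at 0.04 beside LEU2. HIS3 and MET17 had no value on any of the 3 mutant arrays.

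Among mating genes, MF(ALPHA)2, for alpha pheromone, lay at 2.28, and at 0.19 in wild type in peroxide, -0.17 in wild type in KCl, 2.81 in siw14 over wild type in peroxide and 2.55 in KCl. The 4 MATalpha-specific genes had a median of 0.79, with MF(ALPHA)1 at 1.06, the a-factor receptor gene STE3 at 0.51 and SAG1 at -0.02. The 7 MATa-specific genes had a median of 0.56, with AGA2 at 1.47 and MFA1 at 1.05, so the medians of both sets lay above 0. Of 6 mating-type cassette genes 5 were at least 2-fold higher, against 6.18% of all genes. They ranged from MATALPHA1 at 1.28 to HMRA2 at 1.52, and HMRA1 lay at -0.13. These cassettes hold near-identical copies, so their probes cannot be assigned to 1 locus. Of 20 pheromone response genes, with a median of 0.35, 5 lay below 0 and 2 were at least 2-fold higher. These 2 were FIG1 at 1.69 and PRM6 at 1.53, a share near the 6.18% of all genes. Whether the strains differ at loci besides SIW14 is not stated in the labels. The effects of such a difference, of the deletion and of the dyes cannot be told apart. The E1A control features, which are no yeast genes, had a median of 2.08 over 3 features on this array. Their values on the other arrays are given below, and their bearing on the ratios of marker and mating genes was not tested.

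Several of the highest and lowest genes belong to none of the lists. BUD25 lay at 3.17, 0.65 in wild type in peroxide, 0.11 in wild type in KCl, 2.38 in siw14 over wild type in peroxide and 2.33 in KCl, and HEM14, next to it on the chromosome, lay at -0.31. RNP1, for a ribonucleoprotein, lay at 2.36, the GTP-binding protein gene GSP2 at 2.22, and GPG1, for a partner of the glucose-sensing G protein, at 2.32. The enolase-related genes ERR1 and ERR2, nearly identical in sequence, lay at 2.32 and 2.13, and the formate dehydrogenase genes FDH1 and FDH2, also near copies, at 1.74 and 1.79. HOS2, for a histone deacetylase, lay at 1.88, 0.35 in wild type in peroxide, -0.50 in wild type in KCl, 1.41 in siw14 over wild type in peroxide and 1.21 in KCl. Among the lowest were DSK2, for a ubiquitin-binding shuttle, at -1.67, and PDH1, for an enzyme of propionate breakdown in mitochondria, at -1.70, while its neighbour CIT3 lay at 1.05. PIB2, for a regulator of TORC1 at the vacuole, lay at -1.07. ATG41, which stands in the autophagy list, lay at -1.64, while the median of that list's 21 genes was 0.11.

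**Figure D4:**
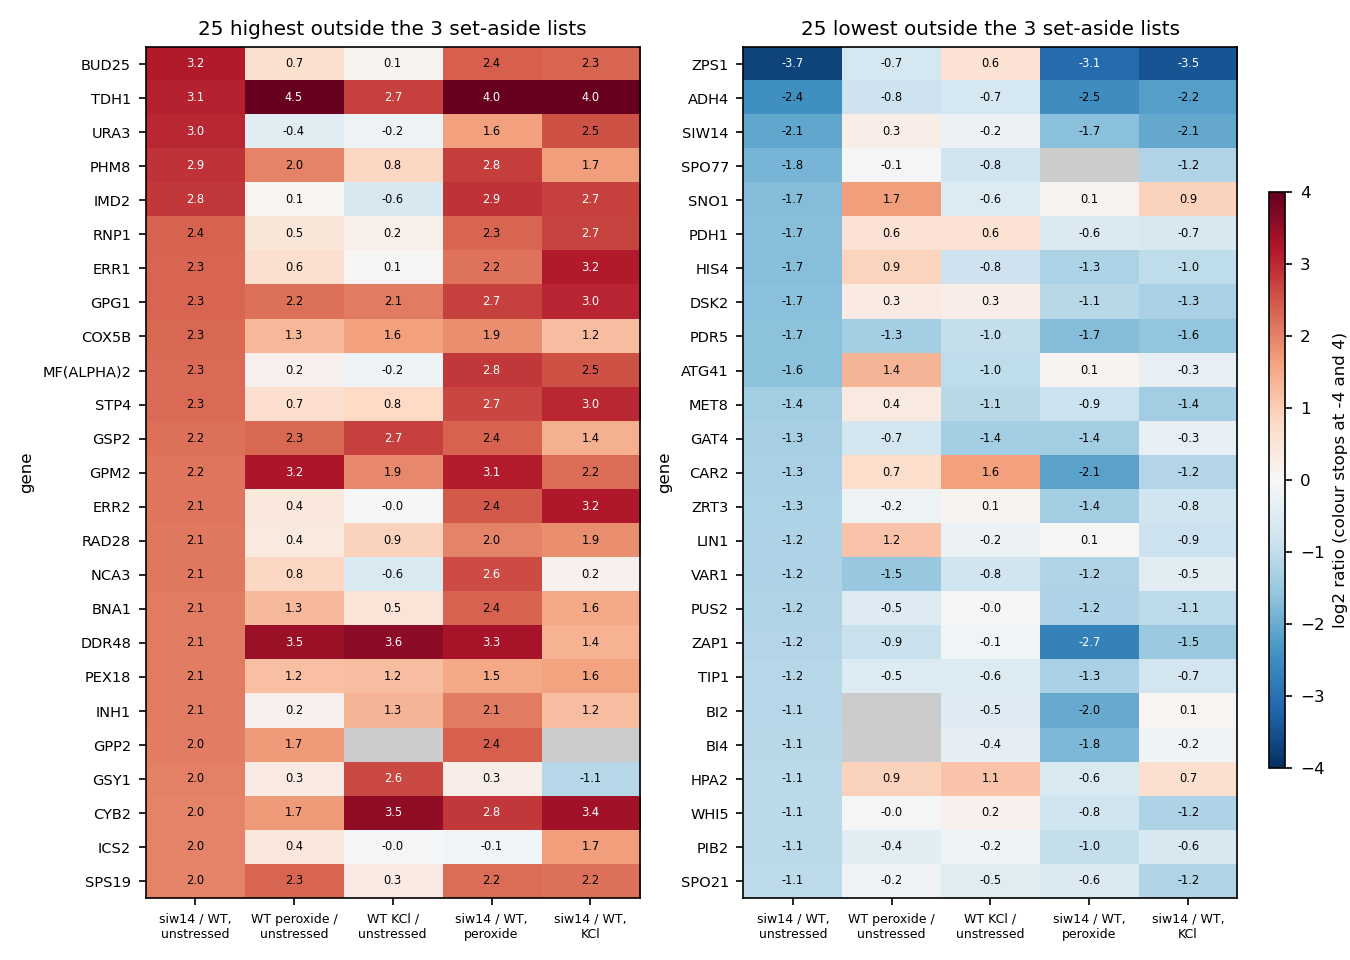
Colours and printed numbers give the log2 ratio of the 25 highest (left) and 25 lowest (right) named genes of unstressed siw14 over wild type outside the 3 lists set aside, with 1 column for each of the 5 arrays and grey where a value is missing. The rows were chosen on the leftmost column; IMD2, URA3 and RNP1 are red on the mutant arrays and pale on the wild-type stress arrays, whereas TDH1 and DDR48 are red on all 5.

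Part of what was higher in unstressed siw14 cells was also higher in stressed wild-type cells. Of 343 higher genes with a value in wild type in peroxide, 164, or 47.8%, were at least 2-fold higher there too, where 10.7% of all genes were, and these were 27.7% of the 593 genes higher there with a value on both arrays. Of 335 with a value in wild type in KCl, 195, or 58.2%, were at least 2-fold higher there, where 11.5% of all genes were, and these were 30.4% of 642. The wild-type stress arrays used ACY044 and not BY4741, so strain differs between the arrays as well. Of the 332 higher genes with values on both stress arrays, 146 were higher in both, 11 in peroxide only, 49 in KCl only and 126, or 38.0%, in neither, whereas 83.6% of all 5508 genes with these values were higher in neither. These counts include the lists set aside. Outside those lists, 55 of 160 named higher genes, or 34.4%, were higher in peroxide. In KCl 72 of 156, or 46.2%, were higher. The share in neither was 48.7% of 156 named genes with both values, or 76 genes. Of the 85 lower genes with both values, 4 were lower in both stresses, 19 in 1 of them and 62, or 72.9%, in neither. Of all 5508 genes 352 were lower in both, 593 in 1 and 82.8% in neither. Of the 85 lower genes with a value in wild type in peroxide, 18.8% were at least 2-fold lower there and 15.3% higher. Of all genes 11.3% were lower in peroxide and 10.7% higher. In KCl these shares were 12.6% and 11.5% of 87 lower genes, and 11.7% and 11.5% of all genes.

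Among named genes outside the lists set aside, 32 higher and 8 lower genes lay within 0.5 of 0 on both wild-type stress arrays. These were 20.5% of the 156 higher and 26.7% of the 30 lower genes with both values, whereas 32.5% of all 3780 such named genes lay there, and neither group had a larger share there than named genes at large. Apart from URA3, LEU2 and MF(ALPHA)2, the higher ones included RNP1, ICS2 at 1.98, HOS2, FDH1, the cell wall sensor gene WSC4 at 1.71, GCV2, MSN4, FBP1 and CYC1, for the main cytochrome c, at 1.11. They also included the ATP synthase genes ATP20 at 1.28, ATP16 at 1.16 and ATP3 at 1.16, and RXT2, a gene of the Rpd3L deacetylase complex, at 1.06. The 8 lower ones were SIW14, DSK2, ZRT3, WHI5, PIB2, the sporulation gene SPO21 at -1.06, ILV6 and the mannoprotein gene TIR1 at -1.02.

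**Figure D5:**
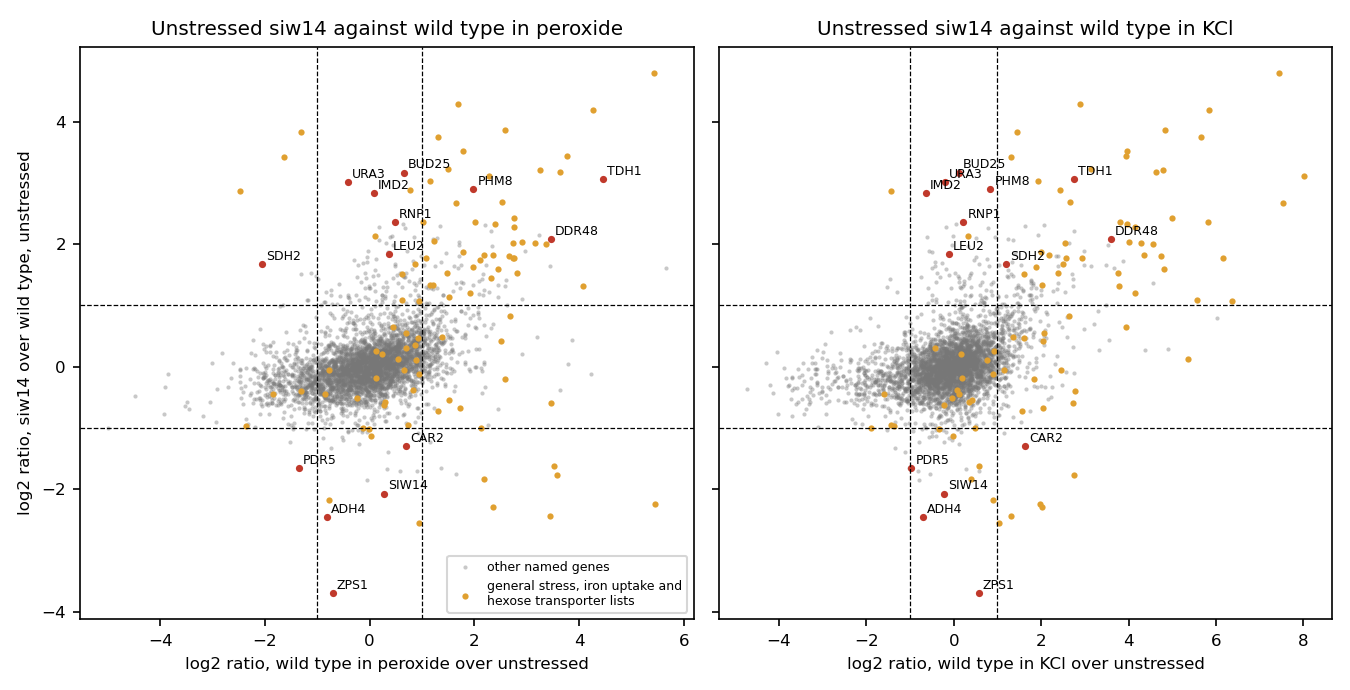
Each point is 1 named gene, with the log2 ratio of unstressed siw14 over wild type on the vertical axis and that of wild type in peroxide (left) or in KCl (right) over unstressed wild type on the horizontal axis; orange points belong to the 3 lists set aside, labelled red points are examples chosen after their values were seen, and dashed lines mark 2-fold. URA3, IMD2 and BUD25 lie high near the vertical midline of both panels, TDH1 and DDR48 lie high on both axes, and SDH2 lies at -2.05 in peroxide and 1.20 in KCl.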

How the data were processed

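Each array gave the log ratio that the authors deposited for a probe; it was read as log2, with the Cy5 sample over the Cy3 sample, per the labels. The logarithm's base, how background was corrected, how arrays were normalised and why values are missing are not given in the sources used here. Symbols came from the platform's annotation and were updated through the RefSeq gene table. Of 6256 yeast probes 4075 had a symbol, and probes of the same gene were averaged. The 53 control features were kept out. The members and the gene lists were chosen with earlier results of these data known. Spot signals were not used here, and the precision is set by the number of arrays. The genes named were the 25 highest and 25 lowest outside the general stress, iron uptake and hexose transporter lists, the genes SIW14, MSN2 and MSN4, and from every list 2 members at each end and up to 6 past 2-fold per direction. Genes within 0.5 of 0 on both wild-type stress arrays (15 at each end) and pairs differing by 1.5 or more were also named. Genes named beyond this were chosen after their values were seen, as were 6 joined lists, among them those of the respiratory complexes, the mitochondrial genome, the cassettes and ribosome assembly. Promoter sequences were not used here. Counts and medians were made with Python 3.11.15, pandas 2.3.3 and numpy 2.4.6 and tested on simulated data. Alternatives were subtraction of the array median, scaling to the arrays' median spread, natural logarithms, unaveraged probes, named genes, genes outside the set-aside lists, and genes measured on all 5 arrays.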

Additional observations from a re-analysis of the deposited data

Results flagged for a closer look

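OYE2 lay at -1.03 in unstressed siw14 over wild type and at 1.59 with both strains in peroxide, which are opposite directions. GSY1 lay at 2.01 unstressed and at -1.15 with both strains in KCl, also opposite directions. Neither difference was tested, since each comparison has 1 array. The E1A control features, which are no yeast genes and stand outside the comparisons above, had a median of 2.08 over the 3 of 10 features with a value on the unstressed mutant array, from 1.68 to 2.35. Their medians were -0.37 in wild type in peroxide, 0.15 in wild type in KCl, 1.17 in siw14 over wild type in peroxide and 0.98 in KCl. Their part in the ratios of yeast genes was not tested.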

How the results depend on the processing

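Subtracting the array median, leaving probes unaveraged, setting the 3 lists aside or taking genes measured on all 5 arrays kept each count over all genes within 1.5 times its value. Scaling to the arrays' median spread gave 779 higher and 488 lower genes in place of 346 and 87, and 25 in place of 12 lists with a median of 0.5 or more in size. It also gave 279 in place of 164 genes shared with wild type in peroxide and 341 in place of 195 with wild type in KCl. Reading the values as natural logarithms gave 540 higher and 228 lower genes, or 70.3% higher. Among named genes alone there were 211 higher and 44 lower, of which 97 higher genes were shared with peroxide and 116 with KCl, since fewer genes were counted. The spread scaling and the natural logarithms each multiply every value by a positive constant. In each, all 77 list medians therefore changed by 1 factor and kept their sign by construction. No paired analysis was possible because each comparison has 1 array and no replicate.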
